A study of Arabidopsis thaliana with 82 samples.

Results

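The group X ethylene response factors ERF108 to ERF115 of Arabidopsis thaliana are 8 transcription factor genes, taken here by gene identifier from a table of 27416 genes. They were followed through cutting and grafting of the hypocotyl, the stem between root and cotyledons. Tissue came from Col-0 seedlings grown on sucrose-free agar for 7 days, with 8 h of light a day at 20 °C. Every seedling lost 1 cotyledon, and that was the only operation on the intact plants. All other plants also had the hypocotyl cut across. They were either left as a separated top and a separated bottom or rejoined, each piece with one cut from another plant, which gave a grafted top and a grafted bottom. Each of the 5 conditions had groups at 6, 12, 24, 48, 72, 120, 168 and 240 h and there was a further intact group at 0 h, which made 41 groups of 2 libraries (82 in all) that the labels call independent biological replicates. No group carried a mutation, a transgene or an added compound. The labels name the tissue only as hypocotyl on 1 side of the junction, and do not say how many plants went into a library.

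Factors of this family carry an AP2/ERF DNA-binding domain and act on promoters with a GCC box. Several members of group X in Arabidopsis are switched on by wounding. ERF115 drives the replacement of lost stem cells together with the GRAS protein PAT1, and ERF114 is a close relative of it and acts in bud outgrowth. ERF113, also called RAP2.6L, acts with the NAC factor ANAC071 in the reunion of cut stem tissue, where ANAC071 is known from above the cut and RAP2.6L from below it. ERF108, also called RAP2.6, responds to jasmonate, abscisic acid and stress. ERF109 responds to jasmonate and reactive oxygen and activates auxin synthesis genes in roots. ERF111, also called ABR1, represses abscisic acid responses.

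Levels are the authors' library-normalised values multiplied by 1 constant, which sets the sum of the median library to 1 M, and are written as x. Depth was estimated for 60 libraries at 7.56 to 20.2 M reads, so an x of 1 stood for 5.78 to 22.0 reads. Differences are of mean log2(x + 1), with a standard error (SE), from limma over the 20766 genes that reached an x of 1 in 2 or more libraries. A gene was called where the Benjamini-Hochberg adjusted p over all those genes was under 0.05. Early is the mean over 6, 12 and 24 h (6 libraries a side), middle over 48 and 72 h (4 a side) and late over 120, 168 and 240 h (6 a side). The log2(x + 1) scale understates changes of genes near 0. Markers of root hair and root meristem were at 0 in most libraries (COBL9 in 65, EXPA7 in 69, RHD6 in 60, PLT1 in 64, PLT2 in 66 and WOX5 in 61 of 82), as were the shoot meristem markers WUS in 81 and CLV3 in 70. Other listed markers were present in most libraries. The root marker SCR was at 0 in 0 libraries (median x 61.6) and CASP1 in 29 (2.31). The shoot meristem marker STM was at 0 in 3 (3.035).

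Of the 8 genes, 7 passed the filter on low values and ERF110 did not. In RefSeq TAIR10.1, 5 of the 8 lie on chromosome 5. ERF115 (AT5G07310) spans chr5:2305551-2306837 on the plus strand and ERF114 (AT5G61890) chr5:24852322-24853941 on the minus strand. ERF113 (AT5G13330) lies at chr5:4271730-4274674, ERF111 (AT5G64750) at chr5:25891449-25893888 and ERF110 (AT5G50080) at chr5:20365722-20367093, all 3 on the plus strand. ERF108 (AT1G43160) spans chr1:16263805-16264945 and ERF109 (AT4G34410), which has 1 exon, chr4:16451876-16453260, both on the plus strand. ERF112 (AT2G33710) lies on the minus strand of chr2:14258509-14260904.

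The 250 bases upstream of the annotated start (RefSeq, TAIR10.1, strand of the gene, 5′ to 3′) are shown for ERF115 and ERF114, whose levels ran alike, for ERF113 and ERF108, which were both highest in separated bottoms, and for ERF109, whose course differed from theirs. Capitals mark matches to 4 motifs, each searched on both strands. The box that names the family's target sites was searched as GCCGCC and the G-box as CACGTG. The core of the W-box was searched as TTGAC, which reads GTCAA where it lies on the other strand, and the auxin response element was searched as TGTCTC. No 2 matches overlapped.
ERF115: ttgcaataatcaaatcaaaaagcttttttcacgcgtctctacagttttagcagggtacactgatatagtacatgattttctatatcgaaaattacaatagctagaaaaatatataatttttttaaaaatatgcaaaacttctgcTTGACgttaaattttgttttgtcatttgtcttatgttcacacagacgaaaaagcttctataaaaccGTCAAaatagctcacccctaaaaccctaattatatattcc
ERF114: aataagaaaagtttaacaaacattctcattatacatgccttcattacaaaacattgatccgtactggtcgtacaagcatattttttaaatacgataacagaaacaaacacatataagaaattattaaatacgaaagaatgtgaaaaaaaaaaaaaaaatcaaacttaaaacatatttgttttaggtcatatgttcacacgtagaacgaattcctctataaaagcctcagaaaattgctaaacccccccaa
ERF113: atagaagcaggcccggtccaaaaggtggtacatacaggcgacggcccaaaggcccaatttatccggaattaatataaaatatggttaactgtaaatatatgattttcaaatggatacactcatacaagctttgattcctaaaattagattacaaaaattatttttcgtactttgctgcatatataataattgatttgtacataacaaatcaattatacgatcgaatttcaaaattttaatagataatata
ERF108: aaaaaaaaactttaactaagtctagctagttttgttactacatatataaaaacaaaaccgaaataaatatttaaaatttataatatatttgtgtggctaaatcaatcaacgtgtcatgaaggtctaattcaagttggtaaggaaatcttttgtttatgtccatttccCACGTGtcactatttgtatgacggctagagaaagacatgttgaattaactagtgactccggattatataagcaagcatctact
ERF109: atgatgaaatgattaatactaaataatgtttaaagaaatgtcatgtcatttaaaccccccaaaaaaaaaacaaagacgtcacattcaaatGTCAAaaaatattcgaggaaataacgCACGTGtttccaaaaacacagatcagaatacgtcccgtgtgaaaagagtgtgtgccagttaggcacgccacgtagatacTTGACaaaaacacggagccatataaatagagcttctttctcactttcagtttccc
These windows are chr5:2305301-2305550 for ERF115, chr5:24853942-24854191 for ERF114, chr5:4271480-4271729 for ERF113, chr1:16263555-16263804 for ERF108 and chr4:16451626-16451875 for ERF109. The ERF115 window held W-box cores 106 to 102 and 40 to 36 bases before the start. ERF108 held a G-box 83 to 78 bases before the start, and ERF109 held a G-box at 134 to 129 and W-box cores at 160 to 156 and 55 to 51. The ERF114 and ERF113 windows held none of the 4 motifs, so neither pair shared one. Of the windows not printed, that of ERF111 held the only GCC box of the 8, 37 to 32 bases before the start. Among 27443 windows of that length the GCC box was in 1.87%, the G-box in 6.49%, the W-box core in 44.9% and the auxin element in 10.9%. A match is a description of these letters only.

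Cutting was followed within 6 h by higher levels of most of these genes on both sides of the cut. Side and duration differed between genes. ERF114 and ERF115 were high above the cut and, after grafting, also below it. ERF108 and ERF113 were highest in separated bottoms, ERF111 peaked at 6 h on every cut surface, ERF112 stayed at a steady low level in all cut tissue, and ERF109 was highest late in grafted bottoms. At 6 h, limma called 6 of the 7 genes higher than intact in separated tops, where 48.9% of all genes were called in either direction. In separated bottoms 7 of 7 were called, all higher, beside 38.5% of all genes. In grafted tops the count was 6 of 7 beside 47.8%, and in grafted bottoms 6 of 7 beside 30.9%, all higher. A pseudocount of 5 ended the 6 h call of ERF109 in separated tops (0.79, adjusted p = 0.068), grafted tops (0.69, 0.12) and grafted bottoms (0.66, 0.18). In grafted bottoms a fit to only the groups compared ended those of ERF109 (0.06) and ERF112 (0.071), which left 4. The gene not called in the tops and in grafted bottoms was ERF108, which intact plants also held at 99.3 and 50.5 at 6 h. These comparisons share the intact libraries as controls. In bulk tissue a change in the share of a cell type and a change of RNA per cell cannot be told apart.

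**Figure D1:**
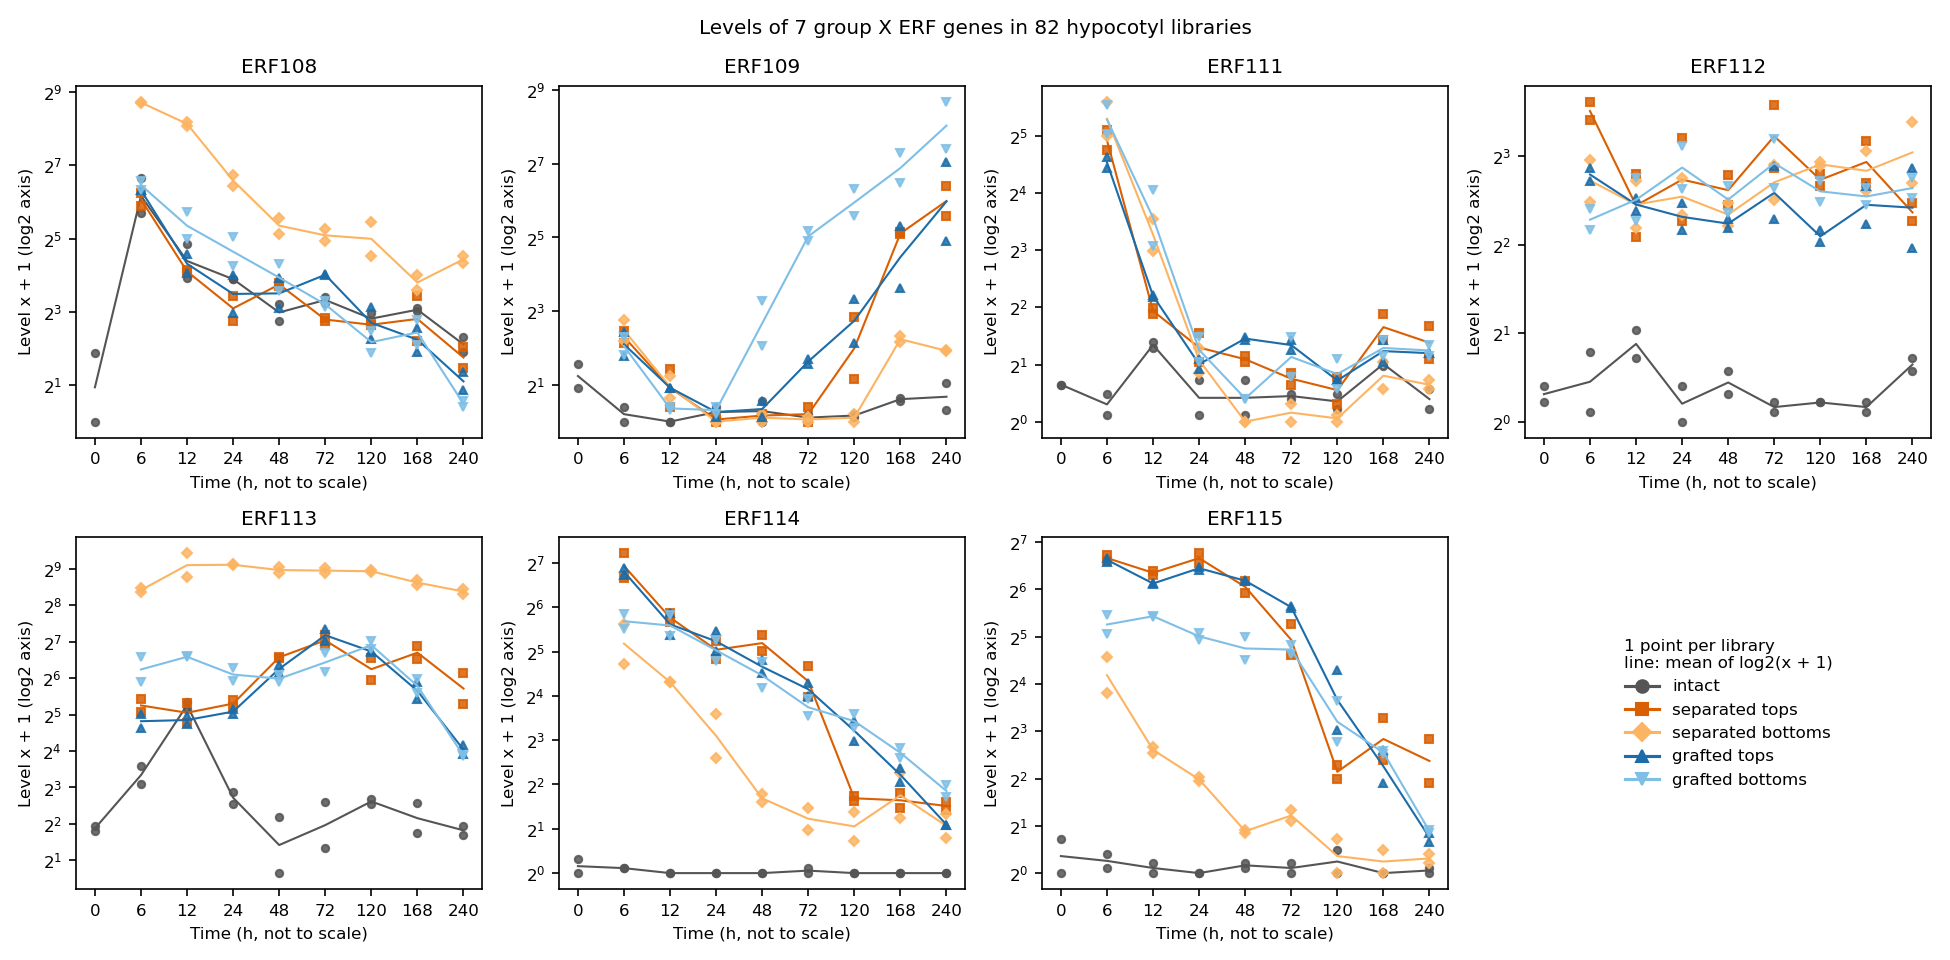
Level of the 7 tested genes, x + 1 on a log2 axis, against hours after the operation (times equally spaced, not to scale). Points are single libraries, lines join the mean of log2(x + 1) of the 2 libraries of a group, and colours mark the 5 conditions. ERF113 in separated bottoms stays between 316 and 687 in every library, while ERF109 in grafted bottoms climbs to 409 and 167 at 240 h.

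Over the early window 6 of 7 genes were called higher than intact in separated tops (62.8% of all genes called in either direction) and 6 of 7 in grafted tops (62.5%). All 7 were called higher in separated bottoms (54.7%) and in grafted bottoms (48.8%). In the middle window 5 of 7 were called for separated tops (67.3%) and 5 for their bottoms (56.3%), and 6 for grafted tops (58.2%) and 5 for their bottoms (46.8%), all higher. In the late window they were 6 in separated tops (71.4%) and 5 in separated bottoms (63.6%), all higher. Late grafted tops had 7 called (55.4%) and late grafted bottoms 7 (53.6%), each with 6 genes higher and ERF108 lower. The difference from intact itself changed between the early and late windows for 5 of 7 genes in separated tops (54.4% of all genes) and 5 in their bottoms (44.6%), and for 5 in grafted tops (49.0%) and 6 in their bottoms (42.3%). With 30.9% to 71.4% of all genes called in these comparisons, the counts carry little by themselves and the sizes below carry the description.

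**Figure D2:**
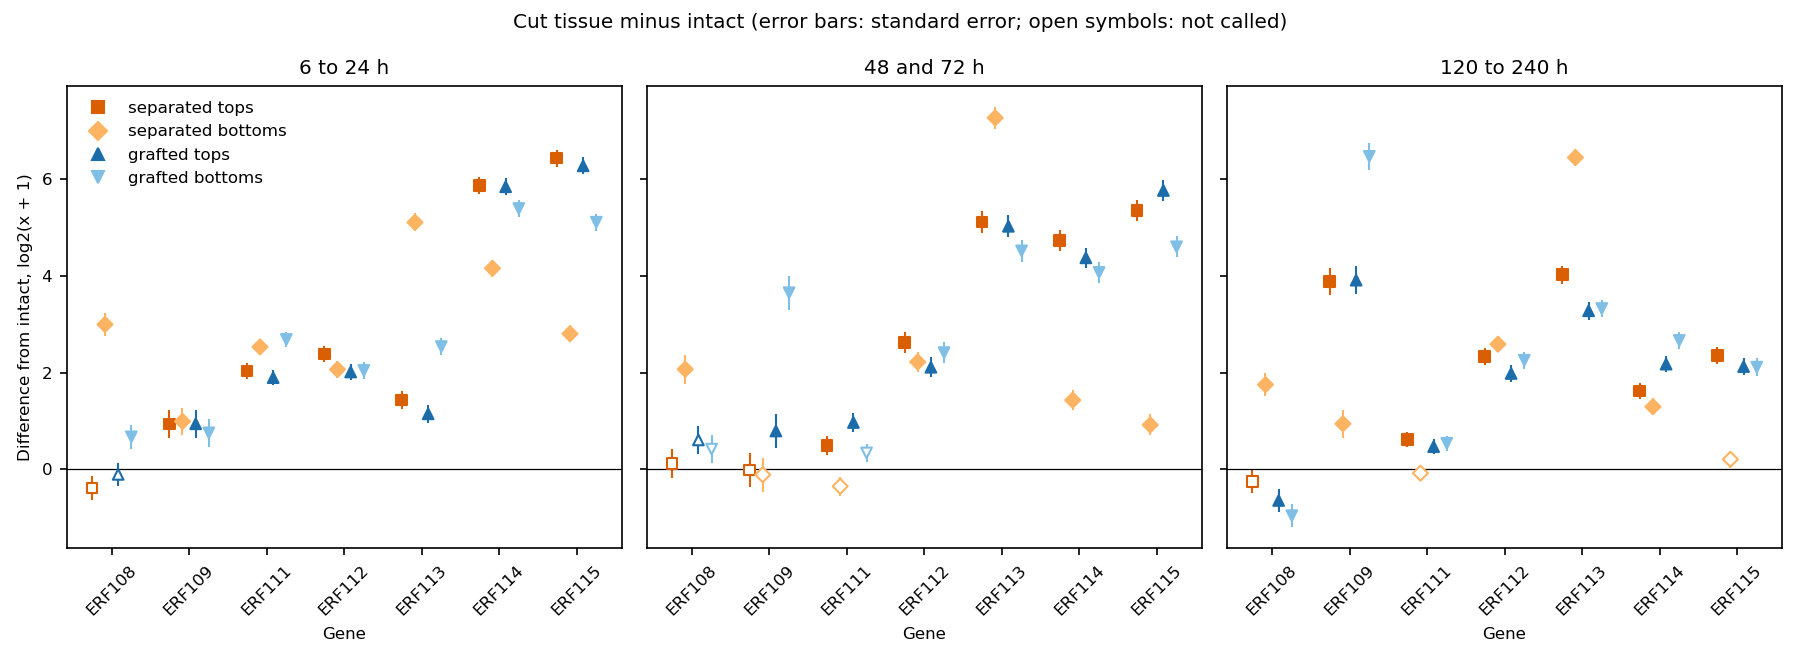
Difference of cut tissue from intact plants in mean log2(x + 1), with its SE, for the 7 tested genes in the early, middle and late windows. Filled points were called at adjusted p under 0.05 by limma and open points were not. ERF114 and ERF115 decline from early to late in all 4 cut tissues, and ERF109 stands at 6.48 in late grafted bottoms.

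ERF115, the regeneration factor that works with PAT1, was near 0 in intact plants, at 0 in 9 of 18 intact libraries and at most 0.647. In separated tops it stood at 104 and 96.8 at 6 h, 78.3 and 83.2 at 12 h, 93.6 and 108 at 24 h and 59.96 and 71.6 at 48 h. It then fell away there to 23.4 and 37.3 at 72 h, 2.99 and 3.88 at 120 h, 4.29 and 8.66 at 168 h and 6.15 and 2.75 at 240 h. Separated tops thus held a plateau to 48 h and had lost most of it by 120 h, with no overlap with separated bottoms at any of the 8 times.

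In separated bottoms ERF115 reached 22.7 and 12.95 at 6 h, 5.34 and 4.86 at 12 h and 2.83 and 3.08 at 24 h. From 48 h on it stayed between 0 and 1.54 there. The separated top to bottom ratio of mean x was 5.64 at 6 h and 77.4 at 48 h. On the log2 scale separated tops exceeded bottoms by 3.63 ± 0.18 early (adjusted p = 6.4e-23), 4.44 ± 0.22 in the middle (2.7e-23) and 2.15 ± 0.18 late (3.7e-15). These are among the comparisons that called 5 of the 7 genes early, beside 72.0% of all genes, 5 in the middle beside 76.6% and 5 late beside 79.6%.

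Grafted bottoms kept far more ERF115 than separated bottoms. They held 32.5 and 42.7 at 6 h, 42.5 and 42.0 at 12 h, 32.8 and 29.7 at 24 h, 21.8 and 30.9 at 48 h and 27.4 and 23.7 at 72 h. They then held 11.4 and 5.83 at 120 h, 4.69 and 5.02 at 168 h and 0.809 and 0.890 at 240 h. The 2 grafted libraries lay above both separated ones at 8 of 8 times, with a ratio of means of 2.11 at 6 h and 31.0 at 48 h. Grafted exceeded separated bottoms by 2.31 ± 0.18 early (adjusted p = 7.4e-15), 3.69 ± 0.22 in the middle (2.2e-19) and 1.91 ± 0.18 late (2.7e-13). The same comparison of bottoms called 4 of 7 genes early (34.6% of all genes), 6 in the middle (60.5%) and 6 late (70.2%).

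Up to 48 h grafted tops ran close to separated tops for ERF115, at 101 and 95 at 6 h, 68.8 and 69.0 at 12 h, 88.3 and 84.6 at 24 h and 72.5 and 71.1 at 48 h. They followed with 47.6 and 49.1 at 72 h, 18.8 and 7.12 at 120 h, 2.75 and 5.10 at 168 h and 0.567 and 0.809 at 240 h. Both grafted tops lay above both separated tops at 72 and 120 h, and below both at 12, 24 and 240 h. Grafted tops stood above grafted bottoms without overlap at 5 of 8 times, those up to 72 h. The excess was 1.17 ± 0.18 early (adjusted p = 1.8e-07) and 1.16 ± 0.22 in the middle (1.9e-05), and late it was 0.01 with a 95% interval of -0.35 to 0.37 (0.98). Between grafted and separated plants the top-bottom difference itself differed by -2.47 ± 0.25 early (1e-10), -3.28 ± 0.31 in the middle (1.9e-12) and -2.13 ± 0.25 late (3e-10).

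ERF114, its bud-enhancing relative, was listed at 0 in 14 of 18 intact libraries and at most at 0.243. Its highest levels were at 6 h above the cut, 147 and 99.5 in separated tops and 116 and 105 in grafted tops. Below the cut it stood at 48.5 and 25.5 in separated and 44.8 and 56.7 in grafted bottoms at that time. Unlike ERF115 it had no plateau above the cut, with 57.1 and 50.1 at 12 h, 36.7 and 27.7 at 24 h, 31.2 and 40.4 at 48 h, 14.8 and 24.5 at 72 h and 2.10 and 2.35 at 120 h in separated tops. Grafted tops held 57.1 and 40.3 at 12 h, 42.9 and 31.2 at 24 h, 21.8 and 27.0 at 48 h, 15.1 and 18.6 at 72 h and 9.79 and 6.96 at 120 h. Separated tops lay above separated bottoms at 7 of 8 times, and grafted above separated bottoms at 7 of 8.

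The sides differed for ERF114 in separated plants by 1.72 ± 0.17 early (adjusted p = 2e-12) and 3.30 ± 0.21 in the middle (4.1e-19). Late it was 0.32 ± 0.17 (0.082), and -0.78 (0.00011) under quantile normalisation, so no late direction is given. In separated bottoms the level fell to 11.0 and 5.10 by 24 h and 2.43 and 2.02 by 48 h, while grafted bottoms held 37.5 and 26.7 and then 16.99 and 25.98. Grafted exceeded separated bottoms by 1.24 ± 0.17 early (1e-07), 2.64 ± 0.21 in the middle (4.1e-15) and 1.37 ± 0.17 late (1.1e-09). Grafted tops and bottoms were nearer to each other, at 0.45 ± 0.17 early (0.02), 0.30 ± 0.21 in the middle (0.24) and -0.49 ± 0.17 late (0.032). The early call was lost without the first grafted bottom at 6 h, the second bottom or first top at 12 h, or the second bottom or first top at 24 h (0.37 to 0.39). The late call was lost without the first bottom or second top at 120 h, the second bottom or first top at 168 h, or the second bottom or either top at 240 h (-0.42 to -0.49). The top-bottom difference of grafted plants differed from that of separated plants by -1.27 ± 0.24 early (9e-05) and -3.00 ± 0.30 in the middle (7.2e-12). Late it differed by -0.81 ± 0.24 (0.0029), which turned to 0.16 (0.59) under quantile normalisation.

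**Figure D3:**
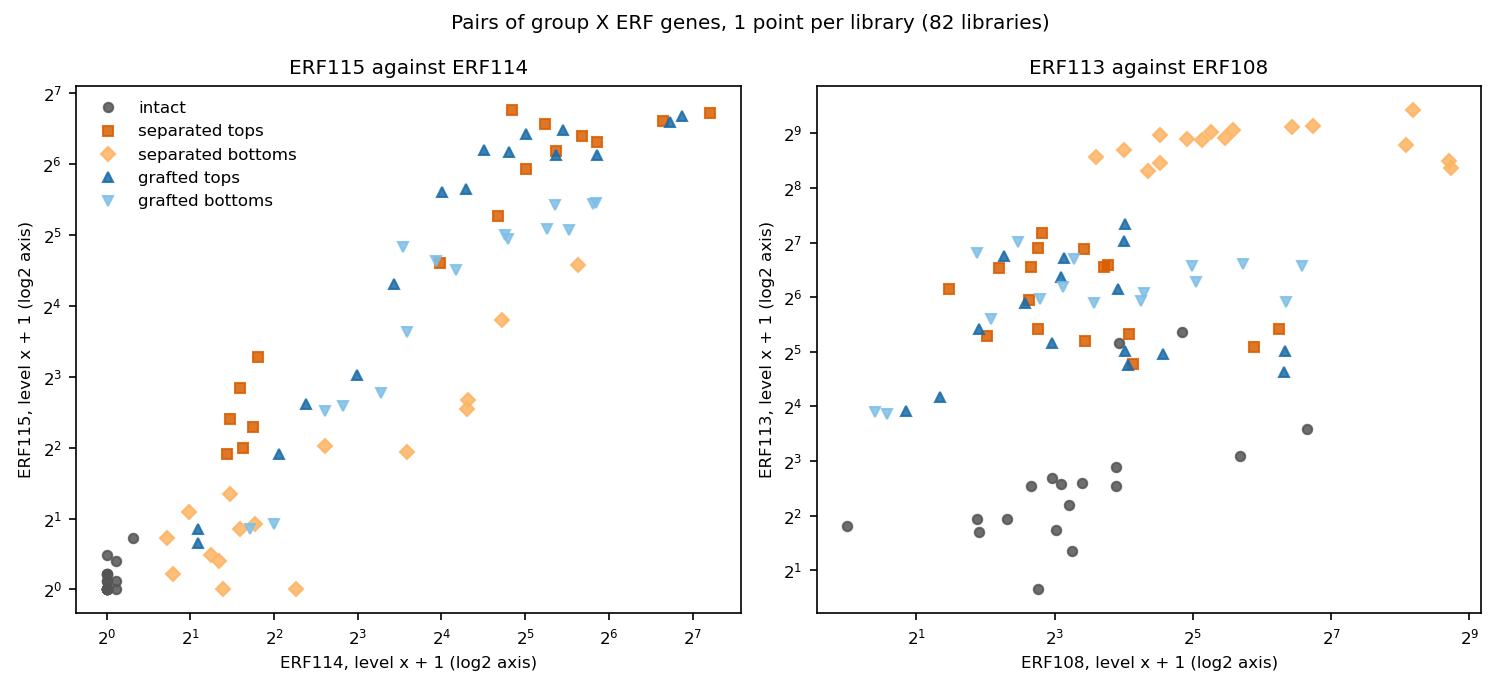
Levels of 2 pairs of genes in the 82 libraries, 1 point a library, both axes x + 1 on log2 scales and colours for the 5 conditions. On the left ERF115 against ERF114, whose points rise together in all cut tissue; on the right ERF113 against ERF108, where the 16 separated bottoms stand apart at ERF113 levels of 316 to 687.

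ERF113, the RAP2.6L of tissue reunion, followed the opposite side. Separated bottoms held 327 and 357 at 6 h, 441 and 687 at 12 h, 558 and 551 at 24 h and 533 and 471 at 48 h. They went on at 518 and 475 at 72 h, 497 and 483 at 120 h, 378 and 412 at 168 h and 316 and 350 at 240 h. All 16 of these libraries lay above every other library of the series, in which the highest level was 161. Intact plants ranged from 0.567 to 11.0, apart from 40.1 and 34.8 at 12 h.

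Above the cut ERF113 already exceeded intact at 6 h, where intact plants held 7.53 and 11.0, and it rose further by 48 h. Separated tops held 41.9 and 32.9 at 6 h, 26.5 and 39.1 at 12 h, 41.5 and 35.7 at 24 h, 93.3 and 95.5 at 48 h and 119 and 144 at 72 h. They kept 60.8 and 92.6 at 120 h, 91.4 and 117 at 168 h and 70.0 and 38.0 at 240 h. Their difference from intact was 1.43 ± 0.18 early (adjusted p = 2.9e-09), 5.12 ± 0.22 in the middle (1.4e-24) and 4.02 ± 0.18 late (2.1e-24). The late difference exceeded the early one by 2.59 in separated tops and by 2.13 in grafted tops. Intact levels fell over the same span, from a mean x of 17.4 early to 3.78 late. The mean went from 36.25 to 78.2 in separated tops and from 29.5 to 57.05 in grafted tops. At 12 h grafted tops, at 29.9 and 25.98, lay below both intact libraries.

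Separated bottoms exceeded tops in ERF113 at 8 of 8 times, by ratios of mean x from 3.78 at 72 h to 17.2 at 12 h. The top-bottom difference was -3.68 ± 0.18 early (adjusted p = 1.1e-22), -2.16 ± 0.22 in the middle (5.6e-12) and -2.43 ± 0.18 late (1.3e-16). Rejoining was followed by much lower levels below the cut, 59.2 and 94.2 at 6 h, 96.0 and 94.5 at 12 h, 76.6 and 59.8 at 24 h and 66.6 and 58.6 at 48 h. Grafted bottoms then held 103 and 71.4 at 72 h, 129 and 110 at 120 h, 47.7 and 61.7 at 168 h and 13.5 and 13.8 at 240 h. At each of the 8 times both grafted bottoms lay below both separated ones, by ratios from 4.10 at 120 h to 24.4 at 240 h. The difference of grafted from separated bottoms was -2.57 ± 0.18 early (4.5e-16), -2.75 ± 0.22 in the middle (8.8e-15) and -3.12 ± 0.18 late (3.1e-20).

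Within grafted plants ERF113 was lower above than below the junction in the early window, by -1.39 ± 0.18 (adjusted p = 6.1e-09). In the middle window the top-bottom difference was 0.51 with a 95% interval of 0.06 to 0.96 (0.059), not called. Without the first grafted bottom at 72 h it was 0.64 and called. With all libraries kept, limma called it with a pseudocount of 5 (0.49, adjusted p = 0.012), quantile normalisation (0.68, 0.01) or only the groups compared (0.51, 0.037). Late the difference was -0.05, interval -0.42 to 0.32 (0.89). Grafted tops themselves held 31.2 and 23.8 at 6 h, 161 and 129 at 72 h and 16.9 and 14.1 at 240 h. The top-bottom difference of grafted plants differed from that of separated plants by 2.29 ± 0.26 early (1.8e-09), 2.66 ± 0.32 in the middle (9.2e-10) and 2.38 ± 0.26 late (3.2e-11).

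ERF108, the jasmonate- and stress-responsive RAP2.6, shared the side of ERF113 but not its duration. In separated bottoms it stood at 424 and 416 at 6 h, 271 and 289 at 12 h, 106 and 85.2 at 24 h and 46.7 and 34.1 at 48 h. It was at 37.2 and 29.3 at 72 h, 22.0 and 43.1 at 120 h, 11.1 and 15.1 at 168 h and 19.3 and 22.0 at 240 h. These libraries lay above separated tops, grafted bottoms and intact plants at 8 of 8 times. The ratio to separated tops was 6.29 at 6 h and 17.3 at 12 h, and the ratio to grafted bottoms ran from 2.73 at 48 h to 51.1 at 240 h.

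Every other tissue, intact included, held ERF108 at 50.5 to 99.3 at 6 h and less from then on. Intact plants went from 2.67 and 0 at 0 h to 99.3 and 50.5 at 6 h, 27.8 and 14.2 at 12 h and 13.8 in both libraries at 24 h. The 6 h libraries of separated tops (75.2 and 58.3) and grafted tops (79.6 and 78.7) fell within the intact range. Against intact, separated tops differed by -0.39 early (adjusted p = 0.16) and grafted tops by -0.11 (0.74), while separated bottoms exceeded intact by 3.00 ± 0.24 early (5.9e-15), 2.07 ± 0.30 in the middle (6.2e-08) and 1.75 ± 0.24 late (1.9e-08).

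Grafted bottoms held ERF108 at 80.0 and 94.8 at 6 h, 51.8 and 30.6 at 12 h, 31.9 and 18.0 at 24 h and 0.486 and 0.324 at 240 h. Their early excess over intact, 0.67 ± 0.24 (adjusted p = 0.02), ended when any 1 of 4 libraries was left out, at 0.51 without the second intact library at 6 h, 0.55 without the first grafted bottom at 12 h, 0.52 without the second intact at 12 h and 0.54 without the first grafted bottom at 24 h. Late they were lower than intact by -0.96 ± 0.24 (0.00077). The corresponding late value of grafted tops, -0.65 ± 0.24 (0.021), was lost without the second grafted top or second intact library at 120 h, the first grafted top at 168 h, or the second of either at 240 h (-0.50 to -0.60). The top-bottom difference in separated plants was -3.39 ± 0.24 early (4.1e-17), -1.95 ± 0.30 in the middle (9.8e-08) and -2.01 ± 0.24 late (3.2e-10). In grafted plants it was -0.78 ± 0.24 early (0.0047), 0.19 in the middle (0.64) and 0.31 late (0.38), and it differed from that of separated plants by 2.61 ± 0.34, 2.14 ± 0.42 and 2.32 ± 0.34 (7e-08, 2.6e-05 and 7.1e-08).

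ERF109, which responds to jasmonate and reactive oxygen, was the late gene of the group. At 6 h it stood at 2.43 to 5.83 in the 8 libraries of cut tissue, against 0 and 0.324 in intact plants. It then fell to between 0 and 0.324 in all cut tissue at 24 h. Grafted bottoms held 8.74 and 3.16 at 48 h, 28.7 and 35.0 at 72 h, 78.9 and 46.9 at 120 h, 155 and 88.7 at 168 h and 409 and 167 at 240 h. At 72 h the next highest libraries were grafted tops, at 1.94 and 2.27.

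Tissue above the cut followed later and lower. Grafted tops held ERF109 at 9.14 and 3.40 at 120 h, 38.9 and 11.3 at 168 h and 131 and 29.1 at 240 h, and separated tops 1.21 and 6.15, 32.9 and 34.2, and 83.0 and 47.0. Separated bottoms reached 3.48 and 3.97 at 168 h and 2.75 and 2.83 at 240 h, and intact plants never exceeded 1.94. In the late window the lowest, median and highest levels were 46.9, 122 and 409 below a graft, 3.40, 20.2 and 131 above it, 1.21, 33.5 and 83.0 in separated tops and 0, 2.79 and 3.97 in separated bottoms. At 120, 168 and 240 h the first-replicate library was the higher one in both grafted tissues. The 2 libraries differed by as much as 5.07-fold in separated tops at 120 h and 4.52-fold in grafted tops at 240 h, the widest gaps among groups with both libraries at an x of 1 or more.

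Grafted bottoms exceeded intact by 3.65 ± 0.35 in the middle (adjusted p = 2e-12) and 6.48 ± 0.28 late (2.5e-24) in ERF109. They exceeded separated bottoms by 3.77 ± 0.35 (4.3e-13) and 5.54 ± 0.28 (2.4e-22), and by a ratio of mean x of 103 at 240 h. Grafted tops were lower than grafted bottoms by -2.86 ± 0.35 in the middle (2.6e-09) and -2.56 ± 0.28 late (1.8e-09). In separated plants the late order of the sides was the opposite one, 2.94 ± 0.28 higher in tops (5e-13). The interaction was -2.96 ± 0.49 in the middle (1.5e-06) and -5.50 ± 0.40 late (1e-16). The difference from intact grew from early to late by 5.72 for grafted bottoms, 2.97 for grafted tops and 2.94 for separated tops. Late grafted and separated tops differed by 0.03, 95% interval -0.54 to 0.60 (0.94).

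The early ERF109 values were small. Early differences from intact were 0.75 to 0.99 in the 4 cut tissues. That of grafted bottoms (0.75 ± 0.28, adjusted p = 0.025) was lost without the first library of either condition at 6 h or at 24 h (0.67 to 0.72). The middle value of grafted tops, 0.79 ± 0.35 (0.049), was lost without the first library of either condition at 48 h or any 1 of the 4 at 72 h (0.65 to 0.84). With all libraries kept, it was also lost with a pseudocount of 5 (0.25, adjusted p = 0.43), no filter (0.79, 0.063) or quantile normalisation (0.48, 0.28). ERF109 overlaps 2 genes on the other strand, AT4G34412 by 301 bases and the long non-coding RNA gene AT4G08985 by 661. The sources used here do not say whether counting used strand. AT4G34412 stood at 5.50 to 8.01 in late grafted bottoms and at 5.83 to 7.85 in late intact plants. AT4G08985 is not among the genes measured, so its level is not known. The part of either gene in the ERF109 values was not tested.

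Genes of the rapid stress response were raised along with ERF109 in middle and late grafted bottoms. The list held ZAT12, ZAT10 and ZAT11 (zinc finger factors), WRKY40 and WRKY33 (defence regulators) and the zinc finger gene SZF1. All 6 were higher than intact in late grafted bottoms, with a median of 4.16 against -0.04 over all genes, of which 25.4% were higher, led by ZAT12 (4.28 ± 0.21), WRKY40 (5.40 ± 0.29), SZF1 (4.26 ± 0.23) and ZAT10 (2.92 ± 0.19). Their summed level was 1160 to 3895 in late grafted bottoms, 328 to 2329 in the tops above them, 232 to 1917 in separated tops, 325 to 933 in separated bottoms and 115 to 196 in intact plants. All 6 were also higher than intact in late separated bottoms (median 2.01, with 32.4% of all genes higher), where ERF109 differed by 0.94 ± 0.28. In the middle window the sum was 858 to 1370 in grafted and 99.1 to 162 in separated bottoms, and all 6 were higher in the grafted ones (median 3.44 against 0.00, with 30.0% of all genes higher). Early the sum was already 323 to 825 in grafted bottoms, against 47.5 to 127 in intact plants. In early grafted bottoms ERF109 stood at 0.162 to 3.88, with a median of 0.324. The part of this response in the ERF109 values was not tested.

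Known targets of ERF109 in auxin synthesis were examined in the same tissue. Of ASA1 and ASB1, which encode subunits of anthranilate synthase, and YUC2, a flavin monooxygenase of auxin synthesis, none was called higher than intact in late grafted bottoms, 1 was lower and 2 were not called, with a median of -0.16 against -0.04 over all genes. Of all genes 25.4% were higher and 28.2% lower there, so 1 call in 3 genes is near the background. ASA1 differed there by -0.42 ± 0.17 (adjusted p = 0.033), YUC2 by -0.16 ± 0.19 (0.53) and ASB1 by 0.05 ± 0.16 (0.83). Against separated bottoms in the same window ASB1 was 1.95 ± 0.16 higher (2.2e-15), YUC2 differed by -1.52 ± 0.19 (1.4e-09) and ASA1 differed by 0.08 ± 0.17 (0.68).

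ERF111, the ABR1 repressor of abscisic acid responses, was the most transient. At 6 h it stood at 47.4 and 31.2 in separated bottoms, 31.8 and 45.7 below a graft, 33.3 and 25.9 in separated tops and 23.9 and 20.6 above a graft, against 0.0809 and 0.405 in intact plants. The 4 cut groups overlapped in part. At 12 h the bottoms held 6.96 to 15.7 and the tops 2.67 to 3.64, and by 24 h no cut library exceeded 1.94.

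Differences from intact at 6 h were 5.001 ± 0.27 in separated bottoms and 4.99 ± 0.27 in grafted bottoms (adjusted p = 3e-20 and 6e-20), 4.62 for separated tops and 4.23 for grafted tops. ERF111 was lower in tops than in bottoms early, by -0.50 ± 0.16 in separated (0.0043) and -0.79 ± 0.16 in grafted plants (2.1e-05). In the middle window, with all levels at 1.78 or less, tops were higher than bottoms, by 0.84 ± 0.19 in separated (0.00011) and 0.63 ± 0.19 in grafted plants (0.006). The latter was lost without the first grafted bottom at 72 h (0.46), with a pseudocount of 5 (0.20, adjusted p = 0.094) or under quantile normalisation (0.39, 0.097). All levels after 24 h lay at 2.67 or less. Late calls of 0.47 to 0.69 rest on these low values: under quantile normalisation the grafted top difference from intact turned from 0.47 to -0.01 and the separated top-bottom difference from 0.69 to -0.09, so no late direction is given for ERF111. RPN5B, a proteasome subunit gene, overlaps it by 109 bases and stood at 18.4 to 32.1 in early separated tops and 7.12 to 11.6 in early separated bottoms. Its part in the ERF111 values was not tested.

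ERF112 was on in all cut tissue and nearly off in intact plants, at every time. Cut libraries ranged from 2.91 to 11.3 and intact ones from 0 to 1.05, with no overlap at any of the 8 times for any of the 4 cut tissues. Over all times the lowest, median and highest levels were 3.24, 5.95 and 11.3 in separated tops and 3.56, 5.54 and 9.47 in their bottoms, and 2.91, 4.05 and 6.39 in grafted tops and 3.48, 5.22 and 8.17 in their bottoms. Differences from intact ran from 1.98 ± 0.17 (late grafted tops, adjusted p = 8.1e-14) to 2.62 ± 0.21 (middle separated tops, 2.8e-15). No difference between sides or between grafted and separated tissue was called for it at the settings used here. Under quantile normalisation with all libraries kept, late separated tops were called lower than bottoms (-0.98, adjusted p = 2.9e-06, from -0.25) and late grafted bottoms lower than separated ones (-0.87, 2.5e-05, from -0.33). A pseudocount of 5 called early separated tops against bottoms (0.22, 0.044) and, as the replicate block did, middle grafted against separated tops (-0.32 and -0.51). In 5 of these comparisons a call appeared when 1 library was left out, among them grafted against separated tops in the middle window (-0.51 ± 0.21, 0.076), which became -0.66 without the second grafted top and -0.69 without the first separated top at 72 h. A call came from the interaction in the middle window, -0.70 ± 0.30 (0.042), which was also lost with a pseudocount of 0.5 (0.059), no filter (0.051), median-of-ratios scaling (0.061), only the groups compared (0.072) or quantile normalisation, which moved it to -0.22 (0.57). It was lost without any 1 of 9 of the 16 libraries (-0.52 to -0.73). These were the first grafted bottom, separated bottom and separated top and both grafted tops at 48 h, and the first grafted top and the second of each other tissue at 72 h. Late the interaction was -0.02 (0.94), and 0.57 (0.04) under quantile normalisation. ERF112 was also the only member of the 7 whose difference from intact was not called as changed from early to late in any of the 4 cut tissues (-0.05 to 0.52).

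ERF110 was listed at 0 in 73 of 82 libraries and at most at 0.324, in 1 grafted top at 72 h. It was above 0 in 1 separated top at 24 h and both at 48, 72 and 120 h (0.0809 to 0.162), and in 1 grafted bottom at 120 h. It is left out of the counts of called genes. Without the filter limma called it in 4 of 35 comparisons, all in the middle window: separated tops against intact and against separated bottoms (0.16 ± 0.04 for both, adjusted p = 0.00029 and 0.00023), and grafted tops against intact and against grafted bottoms (0.10 ± 0.04 for both, 0.027 and 0.034). These values lie near the smallest that the table can hold, 0.0809, and the grafted top value comes from 1 library.

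**Figure D4:**
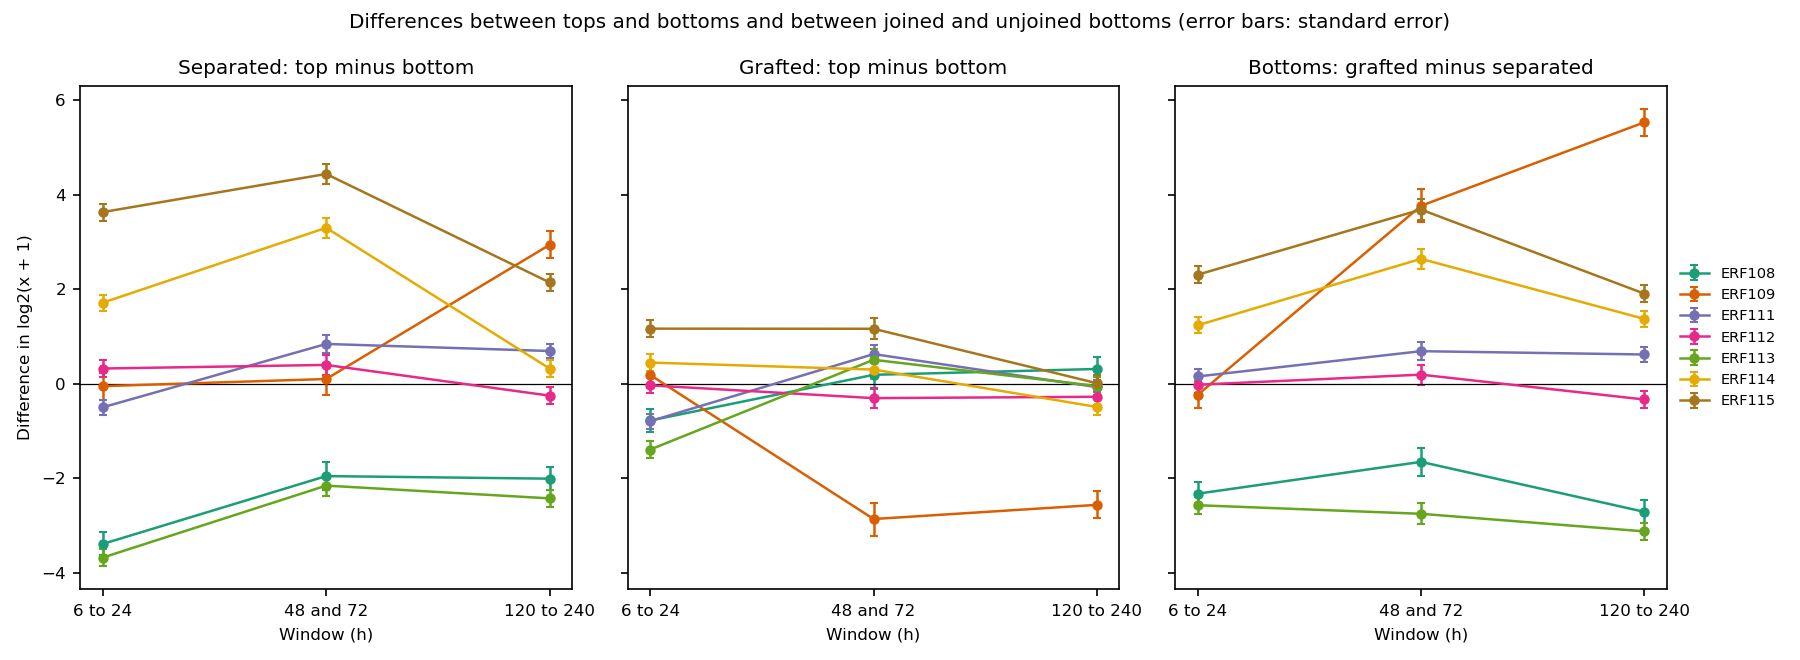
Difference in mean log2(x + 1), with its SE, for the 7 tested genes in the 3 windows: separated top minus bottom, grafted top minus bottom, and grafted minus separated bottoms. ERF113 and ERF108 lie below 0 and ERF115 above 0 in separated plants, all 3 nearer 0 after grafting, and ERF109 stands at 5.54 in late bottoms.

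More of these genes were called between grafted and separated bottoms than tops, and the same held for all genes, with 34.6%, 60.5% and 70.2% called in bottoms early, middle and late, so the counts show nothing particular to these genes. Grafted and separated tops differed in 0 of 7 genes early by limma (1 at unadjusted p under 0.05), where 0.347% of all genes were called. The early 95% intervals of that difference were -0.52 to 0.20 for ERF115, -0.38 to 0.32 for ERF114, -0.65 to 0.08 for ERF113 and -0.20 to 0.78 for ERF108. In the middle window 0 of 7 were called (3 at unadjusted p under 0.05) beside 22.6% of all genes. Late 2 of 7 were called beside 49.3%, ERF113 at -0.75 ± 0.18 (adjusted p = 0.00066) and ERF114 at 0.56 ± 0.17 (0.0059). Neither direction held at every late time. At 120, 168 and 240 h mean x of ERF113 was 106, 50.05 and 15.5 in grafted tops. In separated tops it was 76.7, 104 and 54.0. For ERF114 the means were 8.375, 3.68 and 1.13 in grafted and 2.225, 2.14 and 1.86 in separated tops. Tops and bottoms of grafted plants differed in 5 of 7 genes early (64.8% of all genes), 3 in the middle (47.1%) and 2 late (23.6%). The interaction was called for 4 of 7 genes early beside 22.0%, 6 in the middle beside 55.4% and 6 late beside 69.6%.

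Between genes, levels were compared on the authors' values that are also divided by gene length, scaled by 1 constant in the same way. In early separated bottoms ERF113 led with a mean of 717, followed by ERF108 at 445 and ERF114 at 24.8. In early separated tops ERF115 led at 104, before ERF114 at 82.3, ERF113 at 52.5 and ERF108 at 51.6. The order was thus exchanged across the cut. In late grafted bottoms ERF109 led at 158 and ERF113 followed at 92.5, with ERF114 at 7.00 next. ERF111 and ERF112 stayed at 11.5 or less in every window mean.

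Across the 41 groups, mean log2(x + 1) of ERF114 and ERF115 correlated at r = 0.95. Other pairs were looser, with 0.76 for ERF112 and ERF113, 0.68 for ERF111 and ERF114, 0.49 for ERF108 and ERF113, -0.03 for ERF109 and ERF115 and -0.44 for ERF108 and ERF109. Among all tested genes ERF114 was nearest to ERF115, and the next nearest were LBD11 for ERF114 (0.94) and GSTU6 for ERF115 (0.95). The nearest genes to ERF113 were WRKY45 (0.94) and ABS2 (0.93), and to ERF109 AT5G52020 (0.97) and AT1G19210 (0.96). ERF108 had AT3G47800 (0.90) and JRG21 (0.88), ERF111 CYP715A1 (0.93) and AT3G63380 (0.93), and ERF112 APK2A (0.93) and WRKY48 (0.92). These groups share times and tissues, so the values are descriptions with no test.

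The tissue reunion list, ANAC071, ANAC096 and ANAC011 with the cell wall enzymes XTH19 and XTH20, was higher above the cut, as ERF115 was: in separated plants all 5 were higher in early tops than bottoms (median 2.67 against 0.08 over all genes, of which 40.4% were higher). All 5 were higher than intact in early separated tops (median 5.16 against 0.00 over all genes), early grafted tops (5.22) and early grafted bottoms (3.43), where 32.0%, 31.7% and 20.4% of all genes were higher. In early separated bottoms 2 were higher, 1 was lower and 2 were not called (median 0.23), beside 24.3% of all genes higher and 30.4% lower. ANAC071 exceeded intact by 5.71 ± 0.16 in early separated tops (adjusted p = 2.1e-32) and by 3.43 ± 0.16 in grafted bottoms, and XTH20 by 5.16 ± 0.23 and 2.76 ± 0.23. In separated bottoms XTH20 was lower, at -0.80 ± 0.23 (0.0025), and ANAC071, given here after its value was seen, stood at 0.09 ± 0.16 (0.67). All 5 were higher in grafted than in separated bottoms in each window, with medians of 2.61, 4.68 and 2.76, beside 17.5%, 30.0% and 35.6% of all genes higher.

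The known partners and targets of ERF115 make a list of 6. PSK5, a peptide hormone precursor under its control, was higher than intact by 4.32 ± 0.13 in early separated tops and by 4.46 ± 0.13 in early separated bottoms (adjusted p = 2.5e-31 and 7.5e-32), and the difference between these sides was -0.15 ± 0.13 (0.31). PAT1, its GRAS partner, rose by 0.98 ± 0.09 in separated tops (7.9e-13), stood at -0.93 ± 0.09 in separated bottoms (5.3e-12) and so was 1.90 ± 0.09 higher above the cut (6e-23). The list counted 3 higher and 1 lower in early separated tops (median 0.59 against 0.00), where 32.0% of all genes were higher and 30.8% lower. In early separated bottoms it counted 3 higher and 2 lower (0.40 against -0.03), beside 24.3% and 30.4% of all genes. Between grafted and separated bottoms 4 were higher and 1 lower late (median 0.44 against 0.01), beside 35.6% and 34.6%, with PSK5 at 2.19 ± 0.13 and PAT1 at 1.19 ± 0.09.

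Among WIND1 to WIND4, wound-induced relatives that promote callus, all 4 tested were higher than intact in each of the 4 cut tissues early (medians 0.85 to 1.39, with 20.4% to 32.0% of all genes higher), led in grafted bottoms by WIND4 at 1.86 ± 0.12 and WIND1 at 1.29 ± 0.10. The neighbouring group IX of the family, with 13 of 17 genes tested, had 8 genes higher and 0 lower in early grafted than in separated bottoms (median 0.94 against 0.00, with 17.5% of all genes higher), led by ERF105 at 3.46 ± 0.24 and ERF102 at 2.19 ± 0.22. In early separated bottoms 0 were higher and 5 lower than intact (median -0.17 against -0.03), beside 24.3% of all genes higher and 30.4% lower, with ERF94 at -3.00 ± 0.25. Of 11 genes of jasmonate synthesis and JAZ repressors, 7 were higher and 1 lower in early separated bottoms (median 1.05 against -0.03, with 24.3% of all genes higher), led by JAZ10 at 2.87 ± 0.25 and JAZ8 at 2.35 ± 0.23. In late grafted bottoms 6 were higher and 0 lower (median 2.33 against -0.04, with 25.4% of all genes higher), led by JAZ8 at 3.85 ± 0.23 and JAZ5 at 3.25 ± 0.27.

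Markers of other tissue moved with some of these comparisons. Of the 8 root markers, 7 were higher and 1 lower than intact in middle separated tops (median 2.30 against 0.13, with 40.2% of all genes higher), where their summed level was 143 to 287 against 73.8 to 160 in intact plants and 77.0 to 113 in separated bottoms. The sum was not high in separated tops alone, as middle grafted tops held 173 to 258 and middle grafted bottoms 104 to 309. The shoot meristem marker STM was 2.75 ± 0.18 higher in early separated tops than bottoms, and the sum of its list was 4.29 to 14.4 in tops and 0.162 to 0.809 in bottoms. The 3 guard cell lineage markers were lower in late grafted than separated bottoms (median -1.77, with 34.6% of all genes lower), with sums of 3.88 to 6.80 and 20.0 to 29.2. Their part in the side differences of ERF108, ERF113, ERF114 and ERF115 was not tested.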

How the data were processed

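Hypocotyl RNA was measured in 82 stranded poly(A) libraries (15 PCR cycles, 7 lanes, lane of a library not given), per the labels' protocols. Tools named by the submitters' processing notes are Bowtie2 and cutadapt 1.8.1, with TAIR10 as the genome. The counter, annotation release, scaling method and use of strand are not stated there. Both deposited tables hold a score: values that the authors scaled by library (and, for 1 of the tables, by gene length) and deposited without decimals. Column sums ran from 10.1 to 19.7 M. At every time both bottoms had larger sums than both tops, in separated and in grafted plants. As x uses 1 constant for all libraries, its total differs between the sides in the same way. A deposited value of 1 is an x of 0.0809. Genes were matched by identifier (26719 of 27416 to RefSeq TAIR10.1).

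limma 3.58.1 (R 4.3.3, trend) was fitted to log2(x + 1) for 41 groups, with 41 residual degrees of freedom and Benjamini-Hochberg adjustment over 20766 genes in each of 35 comparisons. The fit was run on simulated data with independent noise, which checks the code and not its suitability for these libraries. Alternatives were pseudocounts of 0.5 and 5, no filter and x of at least 5, median-of-ratios and quantile scaling, the length-normalised table, only the groups compared, a replicate block and each library left out. Named genes are the 8 members, the 2 genes most correlated with each, and up to 4 genes of a list per comparison with the smallest adjusted p. Members and lists were chosen with earlier results of these data known. Same-numbered grafted tops and bottoms deviated together at all 8 times (r 0.211 to 0.639 over 14579 genes), so these numbers pair the 2 tissues, while other pairs of conditions did not reach an r of 0.1 at every time.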

Additional observations from a re-analysis of the deposited data

Results flagged for a closer look

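Results that stood out were those where a tested difference showed that 2 groups responded unlike each other. The first set is the top-bottom difference of grafted plants minus that of separated plants, in log2(x + 1), by limma with adjusted p under 0.05. Early it was 2.61 for ERF108, 2.29 for ERF113, -1.27 for ERF114 and -2.47 for ERF115. In the middle window it was 2.14 for ERF108, -2.96 for ERF109, -0.70 for ERF112, 2.66 for ERF113, -3.00 for ERF114 and -3.28 for ERF115. Late it was 2.32 for ERF108, -5.50 for ERF109, -0.77 for ERF111, 2.38 for ERF113, -0.81 for ERF114 and -2.13 for ERF115, and under quantile normalisation the late ERF114 value turned to 0.16 and that of ERF111 to -0.06. The middle ERF112 value was not called under 5 other settings and was -0.22 under 1 of them, quantile normalisation.

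The second set is the difference from intact in the late window minus that in the early window. In separated tops it was 2.94 for ERF109, -1.42 for ERF111, 2.59 for ERF113, -4.26 for ERF114 and -4.09 for ERF115. In separated bottoms it was -1.25 for ERF108, -2.61 for ERF111, 1.34 for ERF113, -2.87 for ERF114 and -2.60 for ERF115. In grafted tops it was 2.97 for ERF109, -1.43 for ERF111, 2.13 for ERF113, -3.67 for ERF114 and -4.16 for ERF115. In grafted bottoms it was -1.63 for ERF108, 5.72 for ERF109, -2.15 for ERF111, 0.79 for ERF113, -2.73 for ERF114 and -3.00 for ERF115. The 4 tissues share the intact libraries. For ERF113, mean x in intact plants went from 17.4 early to 3.78 late. It also fell in grafted bottoms, from 80.0 to 62.6, and in separated bottoms, from 487 to 406. Their positive ERF113 values are thus not a rise of level in these tissues. With a pseudocount of 5 the grafted bottom value of ERF113 lost its call (0.40, adjusted p = 0.083, limma).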

How the results depend on the processing

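Of 245 differences of the 7 genes, 177 were called. Under the other settings that kept every library, 35 values kept their direction but lost the call, 19 kept it and gained one, and 2146 did neither. A further 5 changed direction, of which 3 lost the call and 2 gained one. With 1 library left out, 45 lost the call, 21 gained one and 0 changed direction. Direction was compared only for values called in the main fit or in the alternative. Changes of sign among values called in neither are not counted. All 5 counted changes of direction came with quantile normalisation, which moved the median of all genes by -0.21 to 0.19 between comparisons. They were ERF111 in late grafted tops against intact (-0.0145) and in late separated tops against bottoms (-0.0912), ERF114 in the latter (-0.777), and the late interactions of ERF112 (0.573) and ERF114 (0.158). The cause was not tested. Of the counts of called genes, 2 moved by more than 1.5 times. Grafted against separated tops in the middle window went from 0 to 1 with a pseudocount of 0.5, median-of-ratios scaling or the replicate block and to 2 with a pseudocount of 5 or only the groups compared, and ranged from 0 to 1 with 1 library left out. Late grafted tops against bottoms went from 2 to 1 with a pseudocount of 5 and ranged from 1 to 2. A pseudocount of 5 also ended the early ERF109 calls. The replicate block was a shift of the second replicate at each time, common to all 5 conditions. It thus does not isolate the pairing of grafted tops with bottoms, a comparison in which it changed no call. Elsewhere it gained ERF108 in middle grafted tops against intact (0.60, adjusted p = 0.026, limma) and ERF112 in grafted against separated tops (-0.51, 0.048), where the samples share only a number. Depth limits ERF110 and the late ERF111 values, which lie near 1.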
